A study of Homo sapiens with 6 samples.

Results

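The genes described here are 35 genes of the endoplasmic reticulum (ER) stress response and of secretory protein folding, chosen by symbol from a list of sensors, transcription factors, chaperones, disulphide isomerases, degradation factors and stress target genes. Each gene was read at its brightest probe set among those that the platform annotation maps to exactly 1 symbol, which gave values for 34 of them, out of 18417 genes read in this way. PDIA3, the remaining gene, had only probe sets shared with its pseudogene PDIA3P1. All 34 passed the filter on low levels and are among 13812 genes tested.

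The samples were HT29 cells, a long-established line from a human colorectal adenocarcinoma that keeps some features of mucus-secreting intestinal cells. In the labels, 3 arrays came from HT29 cells with a laminin α1 expression construct and 3 from HT29 cells with a control construct, all grown for 7 days. Laminin α1 is a chain of laminin, a protein of basement membranes. The design text gives 3 separate culture passages for each group. How many clones make up a group, and the sequence of the construct, were not stated in the sources used here, so the spread between arrays is a spread between passages.

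LAMA1, the gene of the introduced chain, had log2 values of 5.79, 5.72 and 5.71 in laminin α1 arrays, against 5.71, 5.63 and 5.60 in control arrays. The laminin α1 arrays all lay above the control arrays, the nearest pair by less than the rounding of these values. The difference of 0.09 (95% interval -0.05 to 0.24) did not pass the test (limma adjusted p = 0.535), and these data therefore do not verify the construct labels. Of 8 colon epithelial markers tested, 0 passed the threshold in either direction. Of the fibroblast, endothelial and blood cell markers, 4, 1 and 2 were above the level filter and 0 of these passed the test. The 2 tested blood cell markers were CD14, which averaged 7.13 ± 0.16 in laminin α1 and 6.93 ± 0.07 in control arrays without overlap (SD, n = 3 each, limma adjusted p = 0.284), and CD68, with a difference of 0.09 and overlapping groups. PTPRC and CD3E, the markers of blood cells at large and of T cells, lay below the filter level of 5.50 in both groups.

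The ER folds proteins that are bound for secretion or for membranes. When unfolded proteins gather there, the chaperone BiP, encoded by HSPA5, leaves the sensors IRE1, PERK and ATF6, which then start the unfolded protein response. IRE1 splices the mRNA of XBP1, PERK phosphorylates the translation factor eIF2α and so favours the making of ATF4, and ATF6 is cut to release a transcription factor. Together these raise chaperones and degradation factors, and prolonged stress induces DDIT3. Goblet cells of the intestine secrete mucins in large amounts and depend on a large folding capacity.

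In the laminin α1 arrays ERN2 was the single gene of the 34 that passed the test, and it fell. ERN2 encodes IRE1β, the form of IRE1 found mainly in mucus-secreting epithelia of the gut and airway, where in mice it is known to keep mucin production in balance. Its log2 values were 7.54, 7.34 and 7.45 in laminin α1 arrays, against 8.23, 8.08 and 7.99 in control arrays. All laminin α1 arrays lay below all control arrays. The means were 7.44 ± 0.10 in laminin α1 and 8.10 ± 0.12 in control arrays (SD, n = 3 each), a log2 difference of -0.66 (SE 0.08, 95% interval -0.84 to -0.47), or 1.58-fold lower, with limma adjusted p = 0.00104. None of the other 33 genes passed in either direction. Thus 1 of 34 was called lower and 0 of 34 higher, where 2.59% of all genes tested were lower and 2.69% higher.

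ERN1, which encodes IRE1α, the form present in most tissues, had log2 values of 7.61, 7.53 and 7.52 in laminin α1 arrays, against 7.61, 7.56 and 7.50 in control arrays. The groups overlapped, with a difference of -0.0076 (95% interval -0.15 to 0.14, limma adjusted p = 0.97). Within each array the ERN2 value minus the ERN1 value was -0.07, -0.19 and -0.07 in laminin α1 arrays, against 0.61, 0.52 and 0.49 in control arrays. This log2 difference between 2 probe sets moved by -0.65 between the groups. It was chosen after the values of both genes were seen, so its separation follows from theirs. Its two-sided exact permutation p was 0.1, the smallest that 3 against 3 arrays allow, and adds no support.

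The other sensors did not pass. EIF2AK3, which encodes PERK, had log2 values of 7.46, 7.45 and 7.56 in laminin α1 arrays, against 7.58, 7.71 and 7.60 in control arrays. The laminin α1 arrays all lay below the control arrays, but the difference of -0.14 (95% interval -0.29 to 0.01) had a limma adjusted p of 0.341. ATF6, which encodes the membrane-bound transcription factor, had a difference of 0.02 (95% interval -0.13 to 0.16, limma adjusted p = 0.931).

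**Figure D1:**
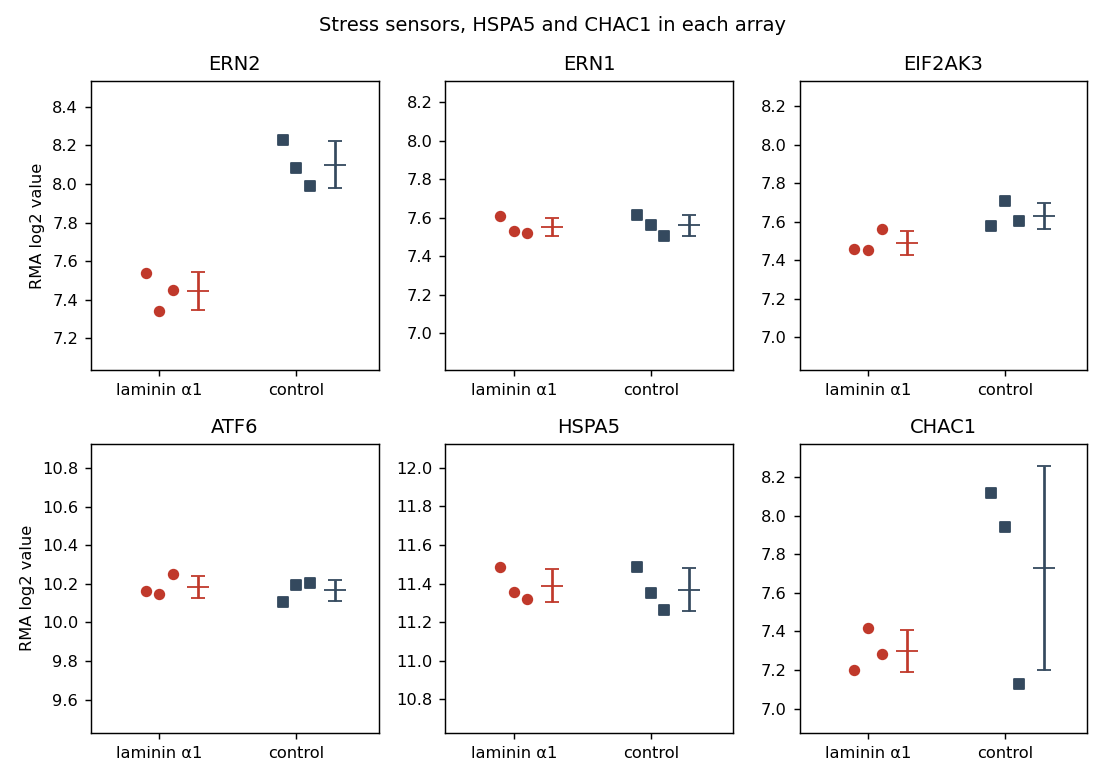
RMA log2 values of the stress sensors, of HSPA5 and of CHAC1 in each HT29 array, with laminin α1 (circles) left of control (squares), and bars for the mean and SD of 3 arrays. All panels span the same log2 range. ERN2 separates at means of 7.44 in laminin α1 and 8.10 in control arrays. EIF2AK3 also lies lower without overlap, by less, and did not pass the test. ERN1, ATF6 and HSPA5 overlap, and CHAC1 is spread widely in the control arrays.

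ERN2 moved together with markers of goblet and secretory cells. Of 13 such markers tested, 8 fell in laminin α1 arrays and 0 rose. Their mean log2 level was 7.16, 7.18 and 7.08 in laminin α1 arrays, against 8.15, 8.09 and 8.06 in control arrays. MUC2, the gel-forming mucin of the colon, averaged 6.59 ± 0.10 in laminin α1 and 8.80 ± 0.0089 in control arrays (SD, n = 3 each). ATOH1, which sets the secretory fate of intestinal cells, averaged 7.13 ± 0.12 in laminin α1 and 9.56 ± 0.17 in control arrays. SPDEF, a goblet cell transcription factor, did not pass, with a difference of -0.07 (limma adjusted p = 0.732). CLCA1 lay below the level filter in both groups. In RNA from a whole culture, fewer cells of a type and less RNA per cell cannot be told apart, and the part of these markers in the ERN2 result was not tested.

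Of the 4 transcription factors of the response, 0 passed the test. XBP1, the factor made from the mRNA that IRE1 splices, had log2 values of 11.39, 11.32 and 11.29 in laminin α1 arrays, against 11.52, 11.40 and 11.35 in control arrays. The groups overlapped. Its difference was -0.09 (95% interval -0.25 to 0.06, limma adjusted p = 0.588), and a value for the whole gene does not separate spliced from unspliced XBP1 mRNA. ATF4, the factor that acts downstream of PERK, differed by -0.04 (95% interval -0.19 to 0.12), and a further probe set of ATF4 by -0.06 (95% interval -0.27 to 0.14). DDIT3, which encodes the stress factor CHOP, differed by 0.09 (95% interval -0.10 to 0.27, limma adjusted p = 0.685). ATF3, a stress-induced factor of the same family as ATF4, had means of 5.65 in both groups, close to the filter level.

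HSPA5, whose mRNA is a standard readout of the unfolded protein response, had log2 values of 11.48, 11.36 and 11.32 in laminin α1 arrays, against 11.49, 11.35 and 11.27 in control arrays. The groups overlapped. The difference was 0.02 (95% interval -0.15 to 0.19, limma adjusted p = 0.935), and the interval bounds a change at between 0.899-fold and 1.14-fold. The other chaperones and secreted folding factors also did not pass, and over these 11 genes the intervals reached no further than -0.31 and 0.34 on the log2 scale.

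Among them, HSP90B1, the ER form of the chaperone HSP90, differed by -0.12 (95% interval -0.31 to 0.06). HYOU1, which recharges BiP with nucleotide, differed by -0.0092 (95% interval -0.19 to 0.17). The lectin chaperones of glycoproteins gave 0.05 for CALR and -0.10 for CANX. CANX had log2 values of 12.59, 12.65 and 12.73 in laminin α1 arrays, against 12.78, 12.76 and 12.75 in control arrays, without overlap and with a limma adjusted p of 0.479.

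The J-domain co-chaperones of BiP differed by -0.06 for DNAJB9, by -0.04 for DNAJB11 and by 0.14 for DNAJC3 (95% interval -0.06 to 0.34, limma adjusted p = 0.514). The DNAJC3 value was 0.05 without laminin α1 replicate 3 and 0.22 without laminin α1 replicate 1. SDF2L1, a partner of DNAJB11, differed by -0.07, and the secreted stress proteins MANF and CRELD2 both by 0.02. Of the protein disulphide isomerases, PDIA4 differed by -0.04 and PDIA6 by -0.10. The 2 probe sets that PDIA3 shares with PDIA3P1 differed by -0.04 and -0.06, with intervals of -0.20 to 0.13 and -0.23 to 0.11. SEC61B, a subunit of the channel through which new proteins enter the ER, differed by -0.02 (95% interval -0.22 to 0.18).

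The promoters of the chaperone genes are shown because several carry the element through which ATF6 and XBP1 act. The window was 250 bases before to 50 bases after each gene's start, from RefSeq (GRCh38.p14), and the table held 31 of the 35 genes, not ERN2, DERL1, DERL3 or PDIA3. The ER stress response element was searched as CCAAT and CCACG with 9 bases between them, on both strands. It was found in 27 of 35116 promoter windows, or 0.0769%, and in windows of 7 of the 31 genes at 8 distinct sites. In the sites below, read 5′ to 3′ on the element's own strand, capitals mark CCAAT and CCACG.
XBP1, chr22:28800603-28800621, minus strand: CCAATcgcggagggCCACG
HSPA5, chr9:125241391-125241409, minus strand: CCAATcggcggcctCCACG
HSP90B1, chr12:103930216-103930234, plus strand: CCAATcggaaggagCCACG
HSP90B1, chr12:103930321-103930339, minus strand: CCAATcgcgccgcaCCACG
CALR, chr19:12938384-12938402, minus strand: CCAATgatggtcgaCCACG
CANX, chr5:179698778-179698796, plus strand: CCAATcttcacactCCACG
CRELD2, chr22:49918554-49918572, minus strand: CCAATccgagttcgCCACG
PDIA6, chr2:10812853-10812871, minus strand: CCAATgagccgcagCCACG

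The 7 genes with this element differed between the groups by -0.12 to 0.05 on the log2 scale, with a median of -0.09. The other 24 genes with a window ranged from -0.43 to 0.14, with a median of -0.04. These are descriptions, and a window without the letters says nothing about the factors. The whole HSPA5 window, at chr9:125241294-125241593 on the minus strand of GRCh38.p14, has its site 66 bases before the gene's start.
HSPA5: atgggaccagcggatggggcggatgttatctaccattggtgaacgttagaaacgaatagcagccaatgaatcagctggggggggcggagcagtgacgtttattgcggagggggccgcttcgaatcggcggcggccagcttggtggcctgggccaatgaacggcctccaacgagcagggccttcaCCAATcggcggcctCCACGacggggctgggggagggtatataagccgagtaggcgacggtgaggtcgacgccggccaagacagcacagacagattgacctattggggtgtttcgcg

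The factors of ER-associated degradation, which carry misfolded proteins out of the ER to the proteasome, gave 0 of 7 past the threshold. HERPUD1, a membrane scaffold of this machinery that is induced by ER stress, had log2 values of 9.36, 9.35 and 9.23 in laminin α1 arrays, against 9.61, 9.57 and 9.39 in control arrays. The laminin α1 arrays lay below the control arrays without overlap. Its difference of -0.21 (95% interval -0.38 to -0.04) had an unadjusted p of 0.0216 and a limma adjusted p of 0.187.

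SEL1L, the adaptor of the ubiquitin ligase SYVN1, had log2 values of 8.30, 8.49 and 8.78 in laminin α1 arrays, against 8.65, 8.65 and 8.82 in control arrays. The groups overlapped, at a difference of -0.19 (95% interval -0.44 to 0.06), which was -0.07 without laminin α1 replicate 1 and -0.31 without laminin α1 replicate 3 (limma adjusted p = 0.0546). SYVN1 itself differed by -0.02 (95% interval -0.20 to 0.17). The derlins, membrane proteins of the retrotranslocation channel, differed by -0.02 for DERL1, by 0.11 for DERL2 and by -0.08 for DERL3. EDEM1, which acts on misfolded glycoproteins, differed by -0.03 (95% interval -0.18 to 0.11).

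The 5 target genes of ATF4 and CHOP all had negative differences, with a median of -0.21, and 0 of 5 passed the threshold. Without laminin α1 replicate 3 PPP1R15A was at 0.04 and the other 4 stayed negative, and without control replicate 1 the median was -0.13. ASNS, which makes asparagine and is induced when amino acids run short, had log2 values of 8.80, 8.75 and 8.49 in laminin α1 arrays, against 8.93, 8.98 and 8.92 in control arrays. The laminin α1 arrays all lay lower, at a difference of -0.26 (SE 0.09, 95% interval -0.45 to -0.07), with an unadjusted p of 0.0126 and a limma adjusted p of 0.136. SESN2, a stress-induced regulator of growth signalling, had log2 values of 7.35, 7.21 and 7.26 in laminin α1 arrays, against 7.66, 7.48 and 7.32 in control arrays. One control array fell within the range of the laminin α1 arrays, and the difference of -0.21 had an unadjusted p of 0.0393 and a limma adjusted p of 0.263.

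CHAC1, an enzyme that breaks down glutathione, had log2 values of 7.20, 7.42 and 7.28 in laminin α1 arrays, against 8.12, 7.94 and 7.13 in control arrays. Control replicate 3 lay below every laminin α1 array while the other control arrays lay above them. The difference was -0.43 (SE 0.21, 95% interval -0.89 to 0.03, limma adjusted p = 0.342). Without control replicate 3 it was -0.73 with a limma adjusted p of 0.002, and without control replicate 1 it was -0.23. The size of the CHAC1 difference thus depended on which control arrays were included. TRIB3, a pseudokinase induced by CHOP, differed by -0.21 (95% interval -0.42 to 0.0035, limma adjusted p = 0.308), and PPP1R15A, which restores translation by helping to dephosphorylate eIF2α, by -0.06 (95% interval -0.27 to 0.14).

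CHAC1 and HERPUD1 are also the only genes of the 31 whose promoter window holds the amino acid response element searched here, TGATGCAA on either strand, which occurred in 304 of 35116 windows, or 0.866%. No match overlapped another motif. The search took only the exact letters, and a window without them says nothing about ATF4. The UPR element TGACGTGG was found in HYOU1 alone among the 31, and in 0.729% of all windows. The windows of CHAC1 (chr15:40953221-40953520, plus strand) and HERPUD1 (chr16:56931892-56932191, plus strand) are shown 5′ to 3′ with the match in capitals, which lies on the minus strand and so reads TTGCATCA.
CHAC1: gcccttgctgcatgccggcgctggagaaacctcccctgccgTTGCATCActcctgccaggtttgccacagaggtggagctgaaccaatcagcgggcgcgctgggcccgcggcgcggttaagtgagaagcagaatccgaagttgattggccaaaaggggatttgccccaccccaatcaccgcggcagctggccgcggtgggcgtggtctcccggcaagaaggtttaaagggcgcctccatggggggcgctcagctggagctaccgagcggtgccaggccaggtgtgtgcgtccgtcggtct
HERPUD1: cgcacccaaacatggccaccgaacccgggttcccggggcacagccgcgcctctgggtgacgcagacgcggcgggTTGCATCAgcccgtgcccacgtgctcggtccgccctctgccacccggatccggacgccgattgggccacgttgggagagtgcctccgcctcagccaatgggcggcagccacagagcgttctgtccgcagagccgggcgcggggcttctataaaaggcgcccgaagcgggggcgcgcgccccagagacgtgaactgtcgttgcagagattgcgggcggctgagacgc

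**Figure D2:**
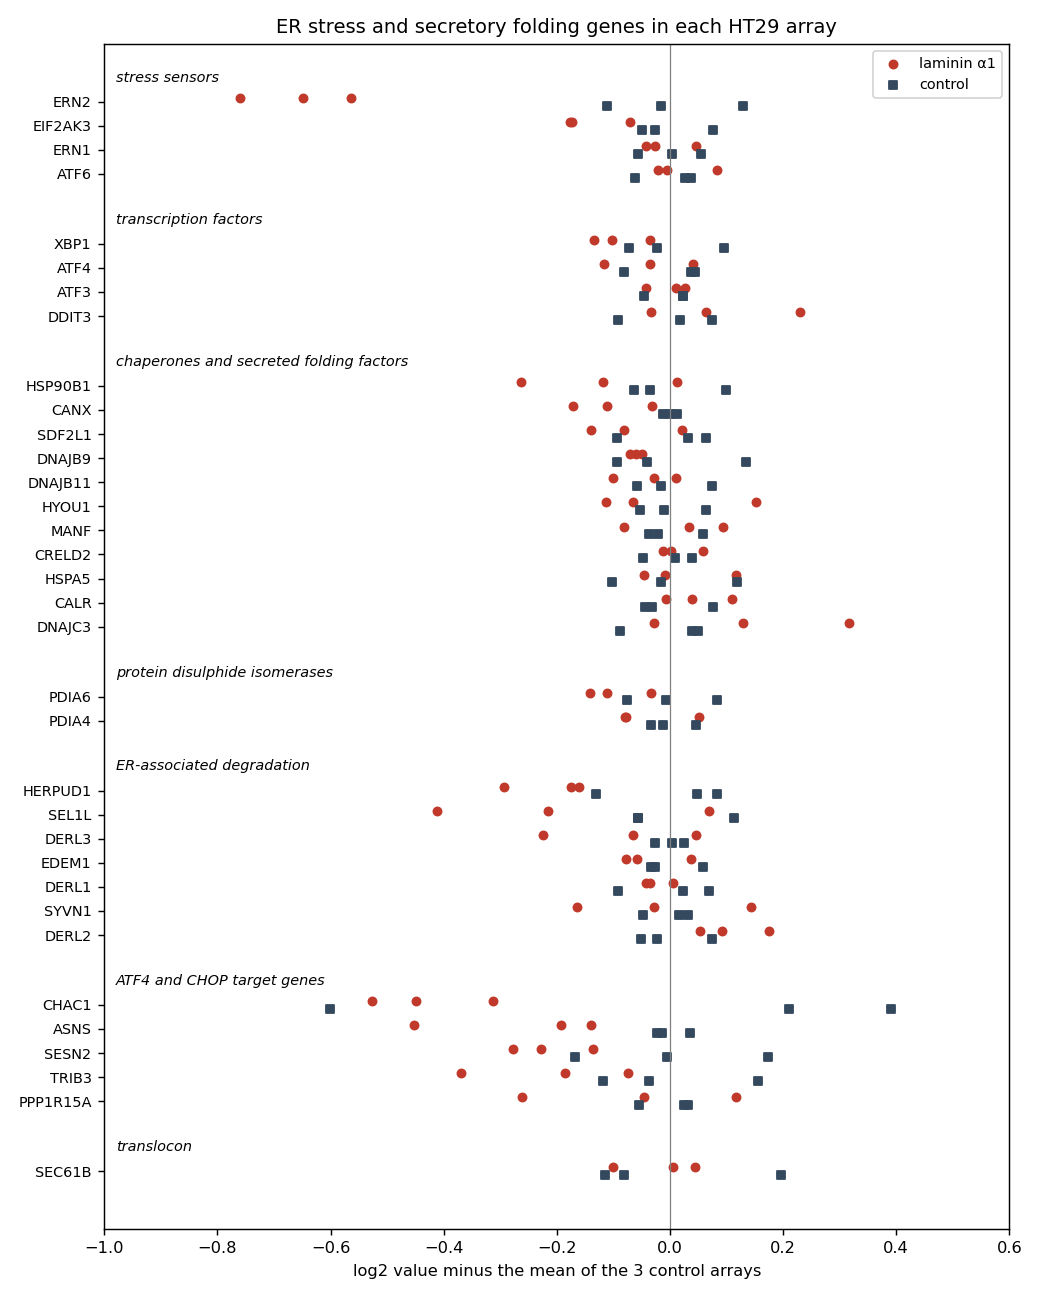
Log2 values of the 34 genes in each array, as the distance from the mean of the 3 control arrays, with laminin α1 arrays as circles above control arrays as squares and the genes grouped by role. ERN2 stands apart from the control arrays in all 3 laminin α1 arrays. ASNS, HERPUD1, EIF2AK3 and CANX also lie lower without overlap, by less. The other chaperones lie around 0.

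Over the 34 genes the median log2 difference was -0.04, beside -0.01 over all genes tested. The median size of a difference, whatever its sign, was 0.06 for the 34 genes and 0.08 for all genes tested. Differences were negative for 26 of the 34 genes, and for 54.4% of all genes tested. Both the median and this count moved when 1 array was left out: without laminin α1 replicate 3 the median was -0.0133 with 20 genes negative, without laminin α1 replicate 1 it was -0.0656 with 28, and without control replicate 3 it was -0.0605 with 27. For 22 of the 34 the 95% interval lay wholly within a change of 1.2-fold either way, as it did for 54.2% of all genes tested. The 12 with wider bounds were ERN2, EIF2AK3, DDIT3, HSP90B1, DNAJC3, HERPUD1, SEL1L, TRIB3, ASNS, CHAC1, PPP1R15A and SESN2. For ERN2 and CHAC1 the interval also reached past 1.5-fold.

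The groups did not overlap for 5 of the 34 genes, which were ERN2, EIF2AK3, CANX, HERPUD1 and ASNS, all lower in laminin α1 arrays. The matching share over all genes tested was 11.5% lower and 10.1% higher. An unadjusted p under 0.05 was reached by 4 of the 34 genes, all with negative differences. Of the 13812 genes tested, 1217 reached it with a negative and 1093 with a positive difference. In either direction the shares were 11.8% of the 34 genes and 16.7% of all genes tested. For groups without overlap they were 14.7% and 21.6%. Over both directions neither share of the ER stress genes exceeded the background. All of these genes were on the lower side. On that side alone the shares without overlap were 14.7% and 11.5%. For an unadjusted p under 0.05 they were 4 of 34 and 1217 of 13812 genes.

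**Figure D3:**
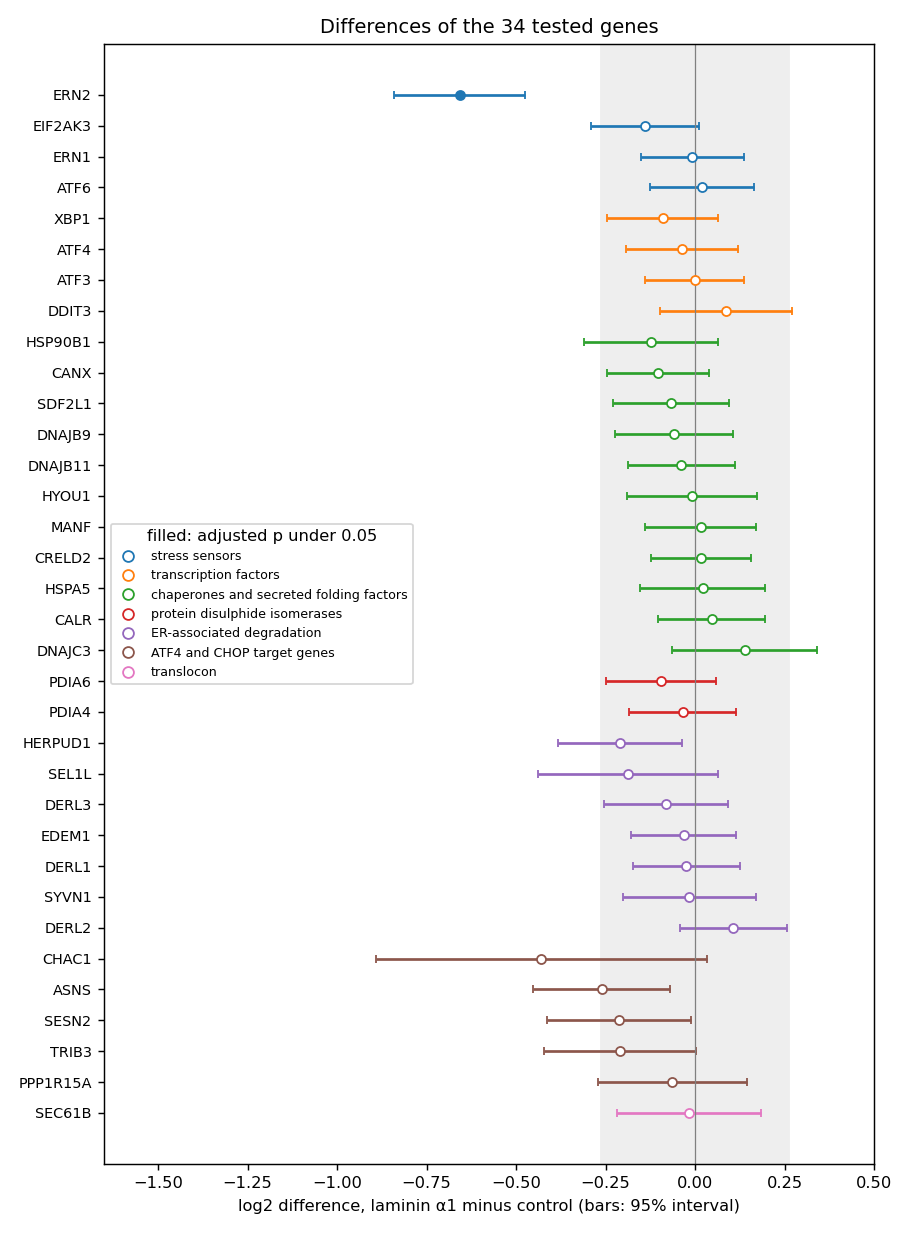
Log2 differences of the 34 genes, laminin α1 minus control, with 95% intervals from the limma fit, coloured by role. The grey band marks a change of 1.2-fold either way, and the filled point marks the gene past the threshold, ERN2 at -0.66. The intervals of 22 genes lie inside the band.

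**Figure D4:**
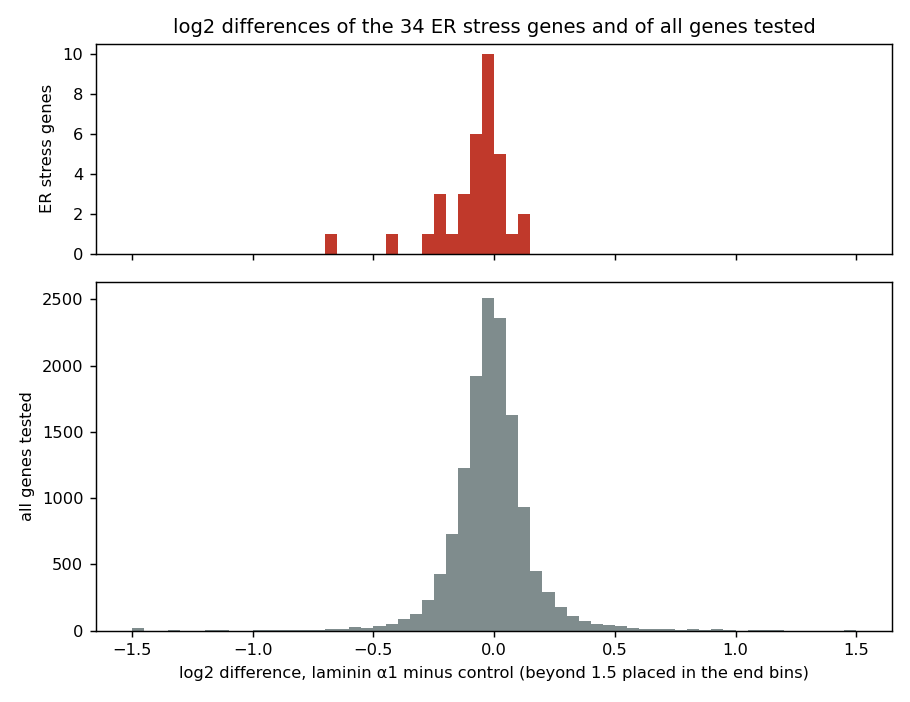
Histograms of the log2 differences, laminin α1 minus control, of the 34 ER stress genes (upper) and of 13812 genes tested (lower), in bins of equal width, with values beyond the axis put in the end bins. The medians are -0.04 and -0.01, and ERN2 and CHAC1 form the lower tail of the upper histogram.

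For part of the 34 genes the order of the arrays went with their replicate number. The array numbered 3 held the lowest value in both groups for 17 of the 34 genes, or 50%, and for 24.8% of all genes tested. These 17 included HSPA5, HYOU1, CALR, PDIA4, PDIA6, XBP1, ATF4, HERPUD1, ASNS and TRIB3. The array numbered 1 held the highest value in both groups for 13 genes, or 38.2%, and for 27.9% of all genes tested. SEL1L and HSP90B1 ran the other way, lowest in the arrays numbered 1 and highest in those numbered 3. Highest in both arrays numbered 3 were 11.8% of the 34 genes and 18.2% of all genes tested. Lowest in both arrays numbered 1 were 8.82% and 14.7%. Within-group deviations of arrays with the same number correlated at 0.18, 0.06 and 0.24 over the 34 genes. Those of arrays with different numbers correlated at -0.33 to 0.23. Over all genes tested the same-number arrays correlated at 0.39, 0.02 and 0.53, and the others at -0.49 to 0.16. The labels do not say whether a number marks a shared passage or day. The mean of the 34 genes against the control mean was -0.06, -0.08 and -0.11 in laminin α1 arrays. In control arrays it was 0.04, 0.00036 and -0.04. These means did not overlap between the groups, the nearest being -0.06 and -0.04. They include ERN2, the 1 gene past the threshold, with its difference of -0.66. The medians overlapped, at -0.03, -0.04 and -0.08 in laminin α1 and 0.04, -0.009 and -0.05 in control arrays.

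Further genes of ER function, cytosolic and mitochondrial chaperones and ER autophagy were read in 13 lists, leaving out the 34 genes above. Of 209 genes tested there, 4 rose and 1 fell, or 204 did not pass. The median log2 difference was -0.02, and 133 of the 209 differences were negative, beside 54.4% over all genes tested.

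AGR2, the 1 that fell, is a disulphide isomerase of mucus-secreting cells that is known to be needed for intestinal mucin production in mice. It averaged 9.59 ± 0.11 in laminin α1 and 10.7 ± 0.19 in control arrays (SD, n = 3 each), a log2 difference of -1.16 (SE 0.10), or 2.23-fold lower (limma adjusted p = 8.63e-05). The other 14 tested genes of oxidative folding did not pass. QSOX1, a secreted sulphhydryl oxidase, had the next smallest p there, with a difference of 0.19 (limma adjusted p = 0.321).

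ALG5, which makes a glucose donor for N-glycosylation, rose 1.79-fold, and MAGT1, a subunit of an oligosaccharyltransferase, rose 1.70-fold (limma adjusted p = 0.00031 and 0.00041). They were the 2 of 18 tested N-glycosylation genes that passed. HSPH1, a cytosolic co-chaperone of HSP70, rose 1.43-fold and CCT5, a subunit of the cytosolic chaperonin, rose 1.24-fold (limma adjusted p = 0.0189 and 0.0371), out of 21 tested genes of the cytosolic heat shock list. HSPH1 did not pass without laminin α1 replicate 2, control replicate 1 or control replicate 2, and CCT5 did not pass without any of these or without control replicate 3.

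The nearest tested neighbours in the genome, 3 on each side in the RefSeq gene order of GRCh38.p14, moved with some of these genes. Of the 6 neighbours of HSPH1, 5 rose, B3GLCT by 2.09-fold and UBL3 by 1.95-fold among them. Of those of ALG5, 3 rose, EXOSC8 by 1.87-fold among them, and of those of MAGT1, 2 rose, COX7B by 1.91-fold and ATP7A by 1.48-fold. None of the 6 neighbours of AGR2 or of CCT5 passed. Beside ERN2, CHP2, its next tested gene, fell 1.37-fold (limma adjusted p = 0.0381), and the other 5 neighbours did not pass. The part of gene position in these results was not tested.

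The other lists gave 0 past the threshold in either direction. Among eIF2 kinases, the phosphatase subunit and eIF2B (10 tested), the smallest p values were those of EIF2AK2, the interferon-induced kinase of eIF2α, at a difference of 0.19 (limma adjusted p = 0.27), and of EIF2B2 at 0.15. In the amino acid and ATF4 response (23 tested), NUPR1, a stress-induced nuclear protein, differed by -0.36 (limma adjusted p = 0.0586) and WARS1, a tRNA synthetase, by 0.24. The median of that list was -0.07. A limma unadjusted p under 0.05 was reached by 6 of its 23 genes with a negative and 2 with a positive difference. Of the 13812 genes tested, 1217 and 1093 did so. The groups did not overlap for 6 of the 23 on the lower and 3 on the higher side, beside 11.5% and 10.1% of all genes tested. In the CREB3 family and site proteases (8 tested), CREB3 differed by 0.16 and CREB3L2 by -0.17.

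Among peptidyl-prolyl isomerases and nucleotide exchange factors (11 tested), FKBP14 differed by -0.37 (limma adjusted p = 0.0651) and FKBP7 by -0.29. In further ER-associated degradation (21 tested), EDEM3 differed by -0.33 (limma adjusted p = 0.185) and UBAC2 by 0.17. In the translocon and signal peptidase list (22 tested), SRP19 differed by -0.13 and SRP9 by -0.16. In COPII and COPI transport (28 tested), which carries cargo between ER and Golgi, COPE differed by 0.24 (limma adjusted p = 0.126) and SEC23B by 0.20.

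In the ER stress cell death list (12 tested), MAP3K5, a kinase that IRE1 can activate, differed by -0.24 (limma adjusted p = 0.0596) and BAK1, a pore-forming death effector, by 0.27. In the mitochondrial unfolded protein response (13 tested), HSPD1 differed by -0.20 (limma adjusted p = 0.177) and CLPX by -0.17. In the ER autophagy list (7 tested), CALCOCO1 differed by 0.15 and GABARAPL1 by 0.11.

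**Figure D5:**
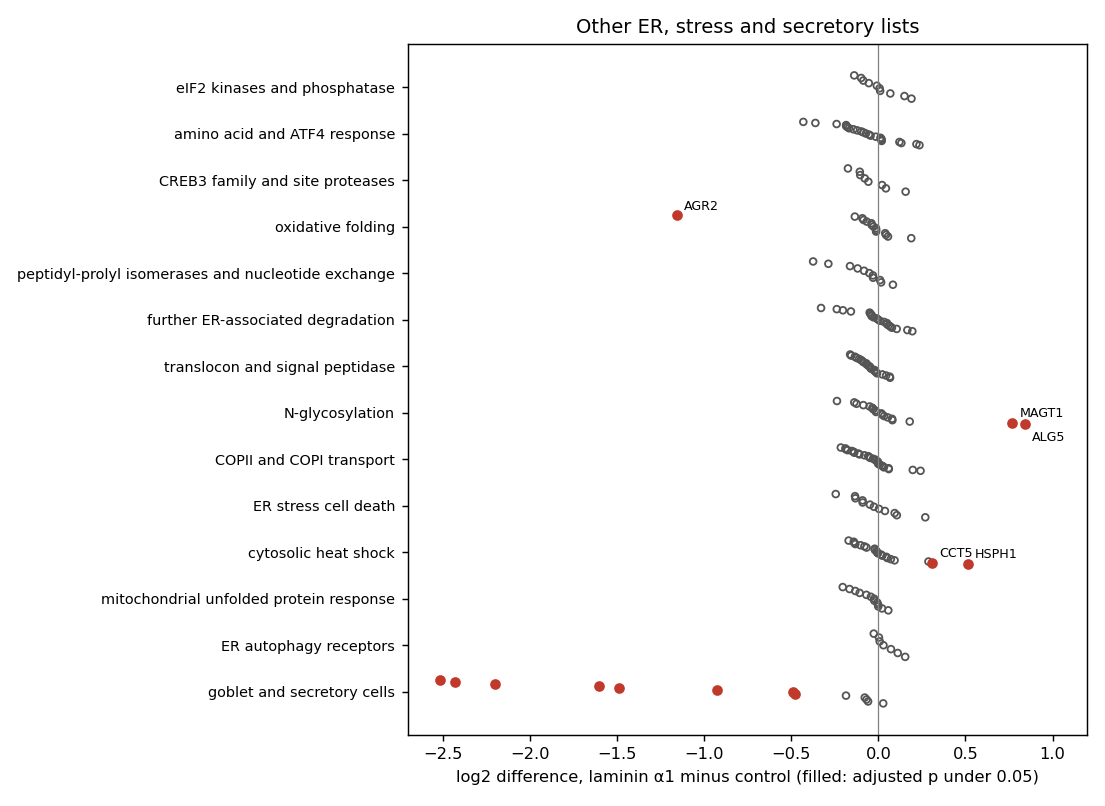
Log2 differences, laminin α1 minus control, of each tested gene in 13 further lists and in the goblet and secretory cell markers, with filled points for an adjusted p under 0.05. AGR2 is the 1 filled point on the lower side of the 13 lists, ALG5, MAGT1, HSPH1 and CCT5 are on the higher side, and 8 of 13 goblet and secretory markers are lower.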

How the data were processed

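The authors deposited RMA values on the log2 scale for every probe set, made in Affymetrix Expression Console 1.1 as the submitters' processing notes record. RMA includes a quantile normalization of probe intensities, which can hide a change of all genes together, and the array medians of the deposited values ran from 6.45 to 6.49. The values were used as deposited. Of 33297 probe sets, the platform annotation gave 19460 exactly 1 symbol, and the brightest was kept for each gene. Genes with a mean level above the 25th percentile, log2 5.50, were tested. Differences, laminin α1 minus control, were fitted over all of these with limma 3.58.1 (lmFit, eBayes; R 4.3.3), with Benjamini-Hochberg adjustment and a threshold of 0.05. The small number of arrays limits precision, and the standard error of a difference had a median of 0.0754. The fit was tested on simulated data. The genes, lists and tests were chosen with earlier results of these data known. The counts by replicate number, the counts of intervals within a fold, the ERN2 minus ERN1 value and the neighbouring genes were added after the values were seen. All listed genes were described, and of each further list those past the threshold were named or, with none, the 2 of smallest p. QSOX1 and the goblet markers given by name were chosen after their values were seen. Alternatives were other level filters, probe set rules, normalizations, variance models, array weights, a replicate block, other thresholds and each array left out.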

Additional observations from a re-analysis of the deposited data

How the results depend on the processing

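ERN2 stayed lower and past the threshold in all 15 alternative fits, with log2 differences of -0.72 to -0.59 and limma adjusted p values of 6.72e-07 to 0.0095. No called difference changed sign. Repeating the quantile normalization moved the median of the 34 genes from -0.0382 to -0.0245. Leaving out 1 array at a time gave 1 to 2 of the 34 genes lower, the second being CHAC1 without control replicate 3. It gave 6 to 12 genes whose groups did not overlap, a count that cannot fall when an array is removed. The matching share over all genes was not computed for these fits. Leaving out 1 array also gave 2 to 4 genes of the further lists higher and 1 to 9 lower. Of all genes, 209 to 530 were higher and 192 to 681 lower, beside 372 and 358 with all arrays. At an adjusted p under 0.01, 200 of all genes were higher and 193 lower, and at 1.5-fold or more, 121 were higher and 112 lower. At either of these, and with every probe set tested separately, the further lists had 2 genes higher. Array weights, whose estimation stopped before convergence and gave control replicate 2 a weight of 10.7, called 2305 of all genes higher and 2386 lower. With them 1 of the 34 genes was higher (DERL2) and 8 were lower, and 20 genes of the further lists were higher and 41 lower. A replicate block gave 746 of all genes higher and 850 lower, 7 and 11 of the further lists, and 3 of the 34 genes lower: ERN2, HERPUD1 (adjusted p = 0.0424) and ASNS (adjusted p = 0.0473). Deviations of arrays with the same number correlated at 0.39, 0.02 and 0.53 over tested genes, and not every array correlated best with its own number, so the numbers were not taken as pairs. The cause of these shifts was not tested.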
